A study of Mus musculus with 2 samples.

Results

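The cells described here are conventional type 1 dendritic cells (cDC1), taken from droplet single-cell RNA sequencing of sorted intestinal dendritic cells. They were chosen by measured values. A barcode had to carry exactly 1 sample hashtag, at least 500 detected genes and at most 10% mitochondrial UMIs (unique molecular identifiers, each standing for 1 captured RNA molecule). It then had to hold at least 3 UMIs of Xcr1 and Clec9a together, more of these than of Sirpa, at most 1 UMI of Fscn1, at most 1 of Prdm16, and fewer than 5 of the cycle genes Top2a, Mki67, Ube2c and Birc5 in sum. Of 15480 barcodes that passed the filters, 1893 (12.2%) met the gate and are called cDC1-gated cells. The 13587 others are called all other cells.

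All cells came from untreated Gm38411-iCre-hCD2 reporter mice aged 15 days, and every replicate carried that reporter. The sort kept CD3-B220-CD11c+MHC-II+ cells of mesenteric lymph node (mLN) and small intestinal lamina propria (siLP), with 3 biological replicates of each tissue, and the 6 replicates were marked with hashtag antibodies 2, 4, 5, 6, 8 and 9 and sequenced as 1 gene expression library. The labels do not say which hashtag belongs to which tissue, so values are given by hashtag and no tissue is compared.

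cDC1 are the dendritic cells that take up dying cells and pass their antigens to CD8+ T cells by cross-presentation on MHC class I. Their development depends on the transcription factors IRF8 and BATF3, and they carry the chemokine receptor XCR1 and the dead cell receptor CLEC9A (DNGR-1). In the intestine and its lymph nodes most cDC1 also carry CD103, the product of Itgae, and cDC2, the other conventional class, carry SIRP-alpha instead.

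The gate genes set the group and are described with no test. Both Xcr1 and Clec9a had a UMI in 1703 of the 1893 gated cells (90.0%), Clec9a alone in 172 and Xcr1 alone in 18. The sum of the pair ranged from 3 to 65 UMIs per cell with a median of 11, and 1603 gated cells (84.7%) had no Sirpa UMI. The gated share was 14.0% in hashtag 2 (exact 95% binomial interval 12.3 to 15.9%), 13.3% in hashtag 4 (11.7 to 15.0%), 13.2% in hashtag 5 (11.7 to 14.8%), 15.9% in hashtag 6 (14.7 to 17.3%), 9.15% in hashtag 8 (8.06 to 10.3%) and 10.2% in hashtag 9 (9.38 to 11.1%). Hashtags 8 and 9 had the lowest shares, and the intervals cover counting error only. Another 319 cells had 3 or more Xcr1 and Clec9a UMIs and stayed outside the gate, 260 of them with 5 or more cycle UMIs.

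The label was checked on Cadm1, an adhesion molecule of cDC1, and Irf8, which the gate did not read. Levels are UMIs of a gene per 1000000 UMIs (CPM), from UMIs summed over the cells of a class in a hashtag, and 3 values in a row are the lowest, the median and the highest of the 6 hashtags. Cadm1 had 771, 1190 and 1540 CPM in cDC1-gated cells, against 92.8, 151 and 205 CPM in all other cells. Irf8 had 1100, 1350 and 1560 CPM in cDC1-gated cells, against 61.5, 144 and 233 CPM in all other cells. Each gene's lowest value in cDC1-gated cells lay above its highest value in all other cells. Cadm1 and Irf8 thus differed in the direction that the label predicts. The share of all genes with such a gap is not given, so the gap alone does not set Cadm1 and Irf8 apart from other genes.

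Cells just inside the gate, with 3 Xcr1 and Clec9a UMIs (124 cells), had 1070 CPM of Cadm1, 929 of Irf8 and 136 of Zeb2, a transcription factor of cDC2. The 171 cells with 2 UMIs that met the gate's other limits (on Sirpa, Fscn1, Prdm16 and the cycle genes), just outside it, had 597 CPM of Cadm1, 655 of Irf8 and 244 of Zeb2. The 1009 cells with 11 or more had 1470 CPM of Cadm1 and 1270 of Irf8, and the 8847 cells with none of either gene that met the limits on Fscn1, Prdm16 and the cycle genes had 118 of Cadm1 and 37.0 of Irf8. Cells that failed those limits are not in these counts. The edge of the gate therefore lay between these levels, and some cells with cDC1 genes are among all other cells.

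**Figure D1:**
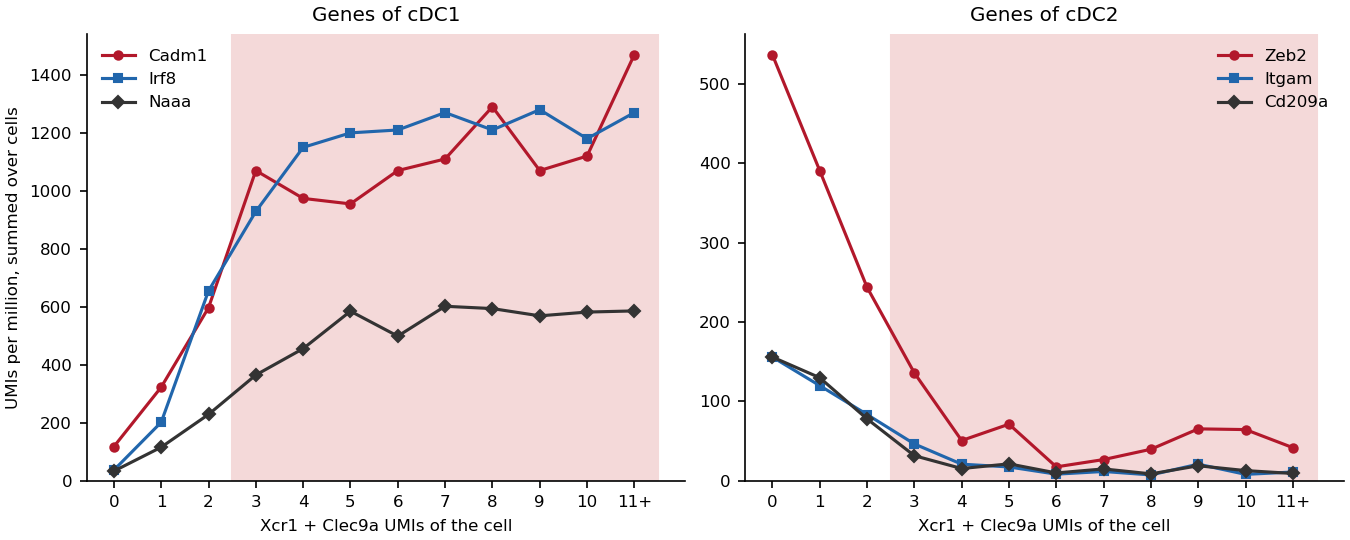
Levels of cDC1 genes (left) and cDC2 genes (right), in CPM summed over cells, by the number of Xcr1 and Clec9a UMIs a cell held, among cells that met the gate's other limits (for cells with none, those on Fscn1, Prdm16 and the cycle genes); the shaded range is where the gate begins, at 3 UMIs. Cadm1 reached 1470 and Irf8 1270 CPM at 11 or more UMIs, and Zeb2 fell to 136 at 3 UMIs, against 537 at none.

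Depth and libraries differed in ways that touch the results. The median cDC1-gated cell had 15920 UMIs and 3640 genes, against 10191 UMIs and 2771 genes in all other cells, and a gate on raw UMIs passes deep cells more readily. Among cDC1-gated cells, hashtags 2, 4 and 5 had medians of 9756 to 11112 UMIs and 2.72 to 3.33% mitochondrial UMIs, and hashtags 6, 8 and 9 had 17360 to 18232 UMIs and 1.48 to 1.58%. Markers of T or NK cells summed to 3.36 to 9.27 CPM in cDC1-gated cells and 5.42 to 325 CPM in all other cells, with Nkg7 and Ncr1 at 0 in the cDC1-gated cells. Macrophage markers summed to 95.7 to 297 CPM in cDC1-gated cells and 204 to 955 CPM in all other cells. Plasmacytoid DC markers summed to 161 to 284 CPM in cDC1-gated cells and 147 to 310 CPM in all other cells, almost all of it Ccr9 and Tcf4. Single members went opposite ways. Median Ccr9 was 108 CPM in cDC1-gated cells against 25.2 CPM in all other cells, and Cd300c 13.6 against 3.34 CPM. Tcf4 was 93.1 against 173 CPM, and Spib 0.764 against 11.4 CPM. Lymphocyte, neutrophil, epithelial and stromal lists are given in the closing part.

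Tests compared UMIs summed per class and hashtag, with the hashtag as a block, so each contrast was made within hashtags, and every adjusted p comes from edgeR's quasi-likelihood test with Benjamini-Hochberg adjustment over all tested genes. Against all other cells, 49.1% of 12197 tested genes passed an adjusted p of 0.05, 23.3% higher and 25.7% lower in cDC1-gated cells. A second reference was the 3403 Sirpa-gated cells, chosen by the mirror image of the gate (Sirpa at least 3 UMIs and above Xcr1 and Clec9a) with the same limits on Fscn1, Prdm16 and cycle genes. Against these, 44.5% of 10656 genes passed, 22.4% higher and 22.1% lower. Both contrasts share the cDC1-gated cells, and since so many genes passed, a list's count says little unless it stands far from these shares. The share of all tested genes whose hashtags did not overlap between classes is not given. A lack of overlap below therefore describes the named gene and does not set it apart from other genes.

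Of 14 transcription factors that steer dendritic cell development, 4 were higher and 2 lower in cDC1-gated cells than in all other cells, and 4 were higher and 3 lower than in Sirpa-gated cells. The list's median log2 fold change was 0.15, against -0.01 for all tested genes, and 0.05 against 0.04 in the contrast with Sirpa-gated cells. Irf8, the terminal selector of the lineage, was higher by 3.39 ± 0.17 on the log2 scale (SE, 6 hashtags a class; edgeR adjusted p = 5.29e-06) and higher in 6 of 6 hashtags. Against Sirpa-gated cells its difference was 5.18 ± 0.22 (edgeR adjusted p = 1.69e-09). Mycl, a MYC family factor that supports cDC1 growth, had 74.3, 106 and 125 CPM in cDC1-gated cells, against 11.5, 20.3 and 32.7 CPM in all other cells. Its log2 fold change was 2.44 ± 0.12 (edgeR adjusted p = 4.61e-06), and the 2 classes did not overlap.

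Batf3, the partner of IRF8 in cDC1, differed far less. It had 120, 157 and 202 CPM in cDC1-gated cells, against 78.7, 127 and 193 CPM in all other cells, and the classes overlapped because hashtags 2, 4 and 5 were high in both. Within hashtags it was higher in 6 of 6, by 0.38 ± 0.08 (log2; edgeR adjusted p = 0.00509), and Bcl6, a repressor that takes part in cDC1 development, by 0.35 ± 0.07 (edgeR adjusted p = 0.00434). Relb, an NF-kB subunit used by mature and cDC2 cells, fell to 54.6, 66.5 and 75.9 CPM in cDC1-gated cells, against 178, 358 and 545 CPM in all other cells (log2 fold change -2.23 ± 0.22, edgeR adjusted p = 0.000149). Etv6 fell as well (-0.78 ± 0.21, edgeR adjusted p = 0.0152), and Spi1, which encodes PU.1, passed only against Sirpa-gated cells (-0.37 ± 0.08, edgeR adjusted p = 0.00154). Id2 (0.17 ± 0.21) and Zbtb46 (0.18 ± 0.08), a factor of all conventional DCs, did not pass against all other cells. The call of Bcl6 against Sirpa-gated cells (0.44) ended when hashtag 2, 5, 6, 8 or 9 was left out, with edgeR adjusted p values of 0.054, 0.0798, 0.0851, 0.067 and 0.109.

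The list of 29 cDC1 signature genes was compiled from knowledge of the lineage and with earlier results of these data known. Of 26 tested, 25 were higher in cDC1-gated cells than in all other cells with a median log2 fold change of 3.16, and all 26 were higher than in Sirpa-gated cells with a median of 4.20. Ly75 (DEC-205) was the exception against all other cells, with 97.5, 107 and 116 CPM in cDC1-gated cells and 65.4, 114 and 155 CPM in all other cells (0.05 ± 0.15).

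Ppt1, a lysosomal thioesterase, had 920, 1080 and 1280 CPM in cDC1-gated cells, against 66.3, 109 and 153 CPM in all other cells (log2 fold change 3.39 ± 0.10, edgeR adjusted p = 7.72e-07). Naaa, a lysosomal amidase, had 477, 603 and 889 CPM in cDC1-gated cells, against 40.6, 72.7 and 107 CPM in all other cells (3.22 ± 0.08, edgeR adjusted p = 5.72e-07). Wdfy4, which cross-presentation of cell-bound antigen requires, had 1050, 1910 and 2940 CPM in cDC1-gated cells, against 609, 743 and 1060 CPM in all other cells (1.23 ± 0.19, edgeR adjusted p = 0.00116). Ppt1 and Naaa did not overlap between the classes, whereas Wdfy4 did, at 2610 to 2940 CPM in hashtags 2, 4 and 5 and 1050 to 1210 CPM in hashtags 6, 8 and 9 of the cDC1-gated cells.

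Surface markers of the lineage separated in the same way. Cd24a had 115, 132 and 139 CPM in cDC1-gated cells, against 16.8, 23.3 and 28.2 CPM in all other cells (log2 fold change 2.55 ± 0.08, edgeR adjusted p = 7.72e-07). Cd8a, the surface marker of lymphoid-resident cDC1, had 41.5, 46.9 and 57.7 CPM in cDC1-gated cells, against 1.65, 5.97 and 10.3 CPM in all other cells (3.36 ± 0.30, edgeR adjusted p = 7.94e-05). Itgae had 136, 204 and 261 CPM in cDC1-gated cells, against 20.7, 62.7 and 116 CPM in all other cells (1.96 ± 0.36, edgeR adjusted p = 0.00281). In cDC1-gated cells Cd24a was nearly even over hashtags, Cd8a was highest in hashtags 2, 4 and 5, and Itgae was highest in hashtags 6, 8 and 9.

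Btla, an inhibitory receptor that binds HVEM, had 298, 410 and 634 CPM in cDC1-gated cells, against 37.0, 96.9 and 158 CPM in all other cells (2.41 ± 0.14, edgeR adjusted p = 1.12e-05). The largest log2 fold changes of the list among genes the naming rule reached were Gpr141b (3.76 ± 0.20), an orphan receptor, Plpp1 (3.62 ± 0.26), a lipid phosphatase, and Gcsam (3.48 ± 0.11). The Wnt receptor Fzd1, named after its value was seen and under 20 CPM on average, had 3.95 ± 0.23.

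**Figure D2:**
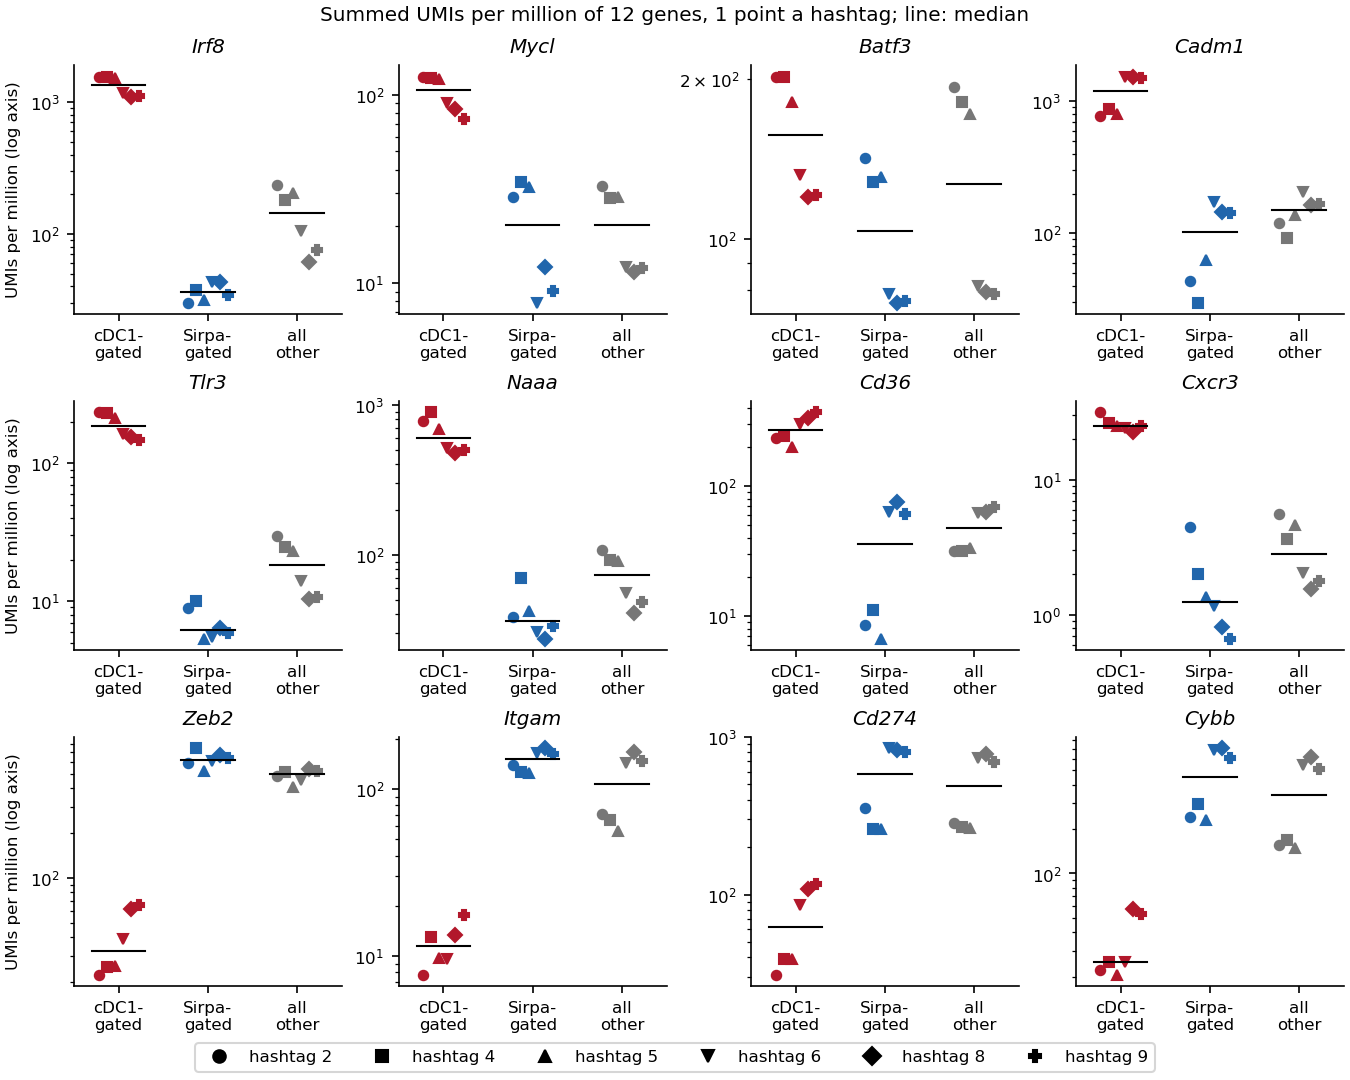
CPM of 12 genes on log axes in cDC1-gated cells (red, left), Sirpa-gated cells (blue) and all other cells (grey); each point is 1 hashtag and the line is the median of 6. Irf8, Mycl, Cadm1, Tlr3, Naaa, Cd36 and Cxcr3 did not overlap between cDC1-gated and other classes and lay higher in cDC1-gated cells, Batf3 overlapped, and Zeb2, Itgam, Cd274 and Cybb lay lower.

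Detection also differed at equal depth. After each cell was thinned to 2000 UMIs (1892 cDC1-gated cells and 12889 other cells, with 1 and 698 too shallow), Irf8 had a UMI in 86.6% of cDC1-gated cells (Wilson 95% interval 85.0 to 88.0%), in 7.10% of Sirpa-gated cells (6.29 to 8.02%) and in 11.7% of all other cells (11.2 to 12.3%). Unthinned, the shares were 98.3%, 25.9% and 28.2%. Tlr3 had a thinned share of 29.3% in cDC1-gated cells, 1.39% in Sirpa-gated cells and 2.45% in all other cells. Zeb2 showed the opposite, with 6.18% of cDC1-gated cells, 53.2% of Sirpa-gated cells and 45.8% of all other cells. The T cell gene Cd3e had a UMI in 0 of 1892 thinned cDC1-gated cells, which at 2000 UMIs a cell allows a share of up to 0.159% with a UMI, and in 1.29% of all other thinned cells. Unthinned, Cd3e had a UMI in 0.423% of cDC1-gated cells and in 2.3% of all other cells.

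**Figure D3:**
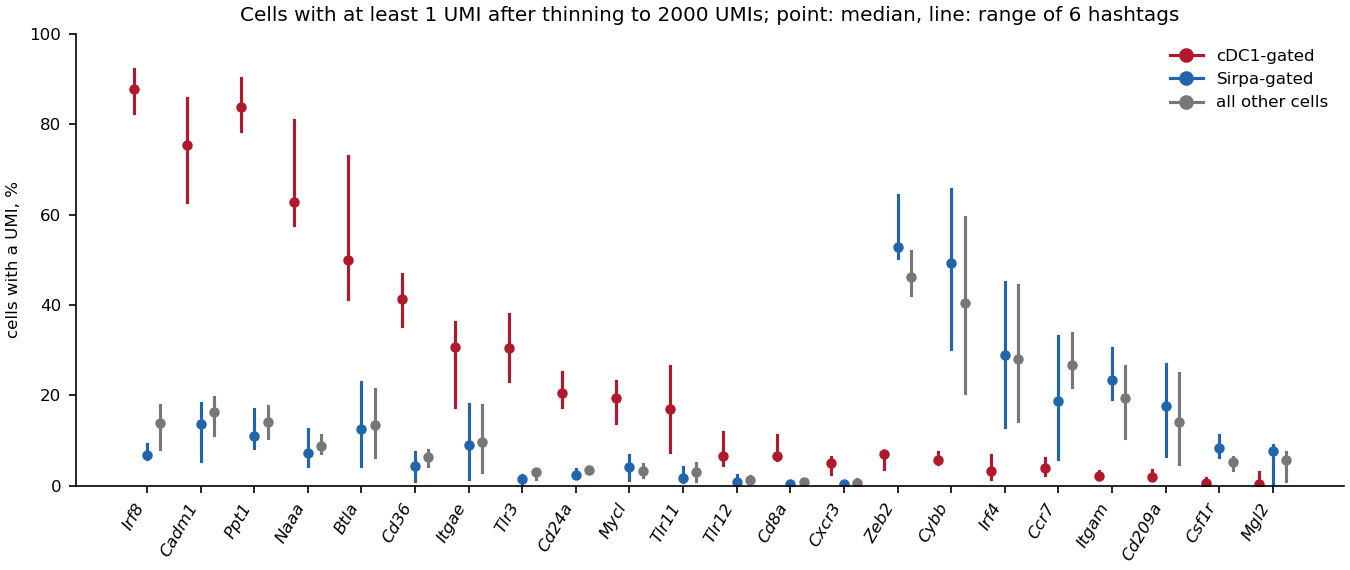
Share of cells with at least 1 UMI, in percent, after thinning every cell to 2000 UMIs, for 22 genes in cDC1-gated, Sirpa-gated and all other cells; the point is the median and the line the range of 6 hashtags. The range of Irf8 in cDC1-gated cells was 82.5 to 92.3%, against 8.13 to 18.0% in all other cells, and that of Zeb2 was 3.85 to 7.69% against 42.2 to 51.9%.

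For the signature genes, the 250 bases before each start were searched on both strands for motifs of the factors above. RefSeq sequence of build GRCm38.p6 was used, in which 21 of the 29 genes matched. The ETS-IRF composite GGAANNGAAA, which PU.1 and IRF8 can bind jointly, was in 2 of 21 (9.52%; Cd8a and Gpr33), against 2.68% of all 27025 genes with such a window. The IRF motif GAAANNGAAA was in 3 of 21 (14.3%; Ifi205, Gpr141b and Tlr11), against 3.46% of all, and the AP-1 motif TGANTCA in 1 of 21 (4.76%; Cd207), against 7.82%. A match is a run of letters and not a shown binding site. Cd8a is printed because it holds the composite motif at 2 places, both on the opposite strand at positions -158 to -149 and -136 to -127 from the start, and Tlr11 because a pathogen sensor of cDC1 holds the IRF motif at -122 to -113. The windows are chr6:71373177-71373426 and chr14:50357664-50357913, both on the plus strand, with the matches in capitals.
Cd8a: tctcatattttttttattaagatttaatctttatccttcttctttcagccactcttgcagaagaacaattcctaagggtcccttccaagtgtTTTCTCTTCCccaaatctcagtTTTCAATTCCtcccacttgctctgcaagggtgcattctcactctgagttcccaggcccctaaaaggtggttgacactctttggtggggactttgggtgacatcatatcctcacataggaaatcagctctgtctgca
Tlr11: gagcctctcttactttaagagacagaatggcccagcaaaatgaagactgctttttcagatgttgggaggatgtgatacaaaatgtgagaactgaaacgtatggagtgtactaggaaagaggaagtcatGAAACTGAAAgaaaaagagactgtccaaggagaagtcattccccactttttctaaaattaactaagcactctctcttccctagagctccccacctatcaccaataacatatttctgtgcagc

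Genes of cDC2 were mostly lower. Of 24 tested members of a cDC2 list, 19 were lower and 2 higher in cDC1-gated cells than in all other cells (median log2 fold change -2.65), and of 25 tested 20 were lower and 2 higher than in Sirpa-gated cells (median -2.90). Zeb2 had 22.4, 32.3 and 65.4 CPM in cDC1-gated cells, against 412, 499 and 540 CPM in all other cells (-3.70 ± 0.19, edgeR adjusted p = 5.78e-06). Itgam, which encodes CD11b, had 7.76, 11.4 and 17.7 CPM in cDC1-gated cells, against 56.0, 107 and 166 CPM in all other cells (-3.16 ± 0.25, edgeR adjusted p = 4.83e-05). Irf4, the factor of cDC2 migration, had 9.05, 21.8 and 42.4 CPM in cDC1-gated cells, against 68.8, 184 and 339 CPM in all other cells (-2.80 ± 0.28, edgeR adjusted p = 0.000135). Cd7 (-3.8), Clec4a4 (-3.49), Clec4a1 (-3.46), Cd209a (-2.92) and Mgl2 (-2.92) were lower by similar sizes, and all fell in 6 of 6 hashtags.

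The 2 list members that were higher than in all other cells were Clec12a and Lyz2. Clec12a, a C-type lectin that senses dead cells, had 133, 162 and 197 CPM in cDC1-gated cells, against 35.9, 41.9 and 48.4 CPM in all other cells (1.96 ± 0.16, edgeR adjusted p = 5.44e-05). Lyz2, which encodes lysozyme, had 94.0, 189 and 276 CPM in cDC1-gated cells, against 45.0, 127 and 195 CPM in all other cells (0.68 ± 0.15, edgeR adjusted p = 0.00617), and did not pass against Sirpa-gated cells (-0.09 ± 0.45). Against Sirpa-gated cells the pair was Clec12a (2.19) and Mgll (2.95), a monoacylglycerol lipase.

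Among 19 tested Toll-like receptors and adaptors, 6 were higher and 6 lower in cDC1-gated cells than in all other cells, with a median log2 fold change of -0.09. Tlr3, Tlr11 and Tlr12 had the largest increases of the 6. The list's other endosomal sensors, Tlr7, Tlr8, Tlr9 and Tlr13, were not among the 6 that were higher. Tlr3, the receptor of double-stranded RNA, had 148, 188 and 234 CPM in cDC1-gated cells, against 10.4, 18.5 and 29.6 CPM in all other cells (3.46 ± 0.10, edgeR adjusted p = 7.72e-07). Tlr11, which senses profilin and flagellin in mice, had 36.7, 71.8 and 147 CPM in cDC1-gated cells, against 6.62, 14.3 and 29.2 CPM in all other cells (2.44 ± 0.06, edgeR adjusted p = 5.72e-07). Its partner Tlr12 had 18.1, 37.2 and 50.9 CPM in cDC1-gated cells, against 4.92, 7.99 and 9.85 CPM in all other cells (2.18 ± 0.09, edgeR adjusted p = 3.03e-06). None of the 3 overlapped between the classes, but in cDC1-gated cells Tlr11 was highest in hashtags 2, 4 and 5 and Tlr12 in hashtags 6, 8 and 9.

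Unc93b1, the chaperone of endosomal Toll-like receptors, was higher by 0.66 ± 0.12 (edgeR adjusted p = 0.00224) and the adaptor Tirap by 1.11 ± 0.14 (edgeR adjusted p = 0.000429). Cd14, a co-receptor of TLR4, passed with 1.27 ± 0.22 (edgeR adjusted p = 0.00223), yet was higher in 4 of 6 hashtags only. It had 0.862, 1.69 and 1.69 CPM in hashtags 2, 4 and 5 of the cDC1-gated cells and 19, 35.8 and 29.0 CPM in hashtags 6, 8 and 9. Irak2, a kinase of the pathway, was lower (-1.40 ± 0.43, edgeR adjusted p = 0.0278), a call that ended without hashtag 6, 8 or 9 (edgeR adjusted p of 0.0819, 0.0656 and 0.0812).

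Receptors of dead cell uptake and scavenging were mostly lower. Of 16 tested, 12 were lower and 1 higher in cDC1-gated cells than in all other cells (median log2 fold change -1.92), and 12 of 15 were lower than in Sirpa-gated cells (median -2.39). The member that was higher was Cd36, a scavenger receptor used by cDC1 for dead cells, with 201, 272 and 369 CPM in cDC1-gated cells, against 31.4, 47.5 and 69.0 CPM in all other cells (2.59 ± 0.15, edgeR adjusted p = 8.18e-06). Cd300lf (-2.88 ± 0.21) and Cd300a (-2.19 ± 0.50), which bind phosphatidylserine and related lipids, were lower and did not overlap. The sum of the macrophage markers moved with this list: it was 95.7 to 297 CPM in cDC1-gated cells, 366 to 1420 CPM in Sirpa-gated cells and 204 to 955 CPM in all other cells, with C1qa medians of 5.35, 69.2 and 38.0 CPM. Cd68 was the exception, with medians of 71.4, 71.8 and 59.8 CPM in the same order, while every other marker had its lowest median in cDC1-gated cells. The part of macrophage-like cells in the counts was not tested.

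MHC class I and cross-presentation genes split. Of 23 tested, 9 were higher and 4 lower in cDC1-gated cells than in all other cells (median log2 fold change 0.02), and 12 were higher and 2 lower than in Sirpa-gated cells (median 0.37, against 0.04 for all tested genes). Rab43, a small GTPase of cross-presentation in cDC1, had 680, 826 and 994 CPM in cDC1-gated cells, against 257, 317 and 441 CPM in all other cells (1.36 ± 0.07, edgeR adjusted p = 5.78e-06). Psmb9, a subunit of the immunoproteasome, had 310, 344 and 378 CPM in cDC1-gated cells, against 112, 170 and 200 CPM in all other cells (1.14 ± 0.08, edgeR adjusted p = 1.75e-05). Both were higher in 6 of 6 hashtags with no overlap.

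Of the peptide loading genes, Pdia3 was higher by 1.15 ± 0.11 on the log2 scale and the transporter subunits Tap1 by 1.03 ± 0.12 and Tap2 by 0.71 ± 0.07. Psmb8 (0.78) and the proteasome activator Psme1 (0.72) were higher too. The 4 that were lower than in all other cells were B2m, H2-K1, Nlrc5 and Cybb. The other heavy chain of the list, H2-D1, was not among them. B2m, the light chain, had 506, 545 and 604 CPM in cDC1-gated cells, against 711, 955 and 1260 CPM in all other cells (-0.77 ± 0.08, edgeR adjusted p = 0.00021). H2-K1, a heavy chain, had 382, 455 and 503 CPM in cDC1-gated cells, against 531, 720 and 938 CPM in all other cells (-0.63 ± 0.07, edgeR adjusted p = 0.000254). Neither overlapped. Nlrc5, the class I transactivator, was lower by a log2 of -0.46 ± 0.09, and Cybb, the NADPH oxidase subunit NOX2, had 20.6, 25 and 57.1 CPM in cDC1-gated cells, against 149, 339 and 618 CPM in all other cells (-3.28 ± 0.27, edgeR adjusted p = 5.41e-05).

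Of 15 tested MHC class II genes, 4 were higher and 4 lower in cDC1-gated cells than in all other cells (median log2 fold change 0.33). March1, a ubiquitin ligase that turns over surface MHC class II, had 155, 367 and 630 CPM in cDC1-gated cells, against 41.6, 123 and 261 CPM in all other cells (1.70 ± 0.10, edgeR adjusted p = 8.18e-06). The peptide editor chain H2-DMb1 had 293, 365 and 412 CPM in cDC1-gated cells, against 112, 195 and 253 CPM in all other cells (0.99 ± 0.16, edgeR adjusted p = 0.00146). Its paralogue H2-DMb2 went the other way, with 49.2, 54.5 and 59.9 CPM in cDC1-gated cells, against 135, 175 and 195 CPM in all other cells (-1.61 ± 0.16, edgeR adjusted p = 0.000135). Reads of such near-identical genes can be split or dropped between the copies, so both values are uncertain.

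H2-DMa (0.58 ± 0.19) and the class II transactivator Ciita (0.36 ± 0.08) were the others that were higher. The endosomal enzymes Lgmn (-1.92 ± 0.21), Ifi30 (-0.85 ± 0.22) and Ctss (-0.66 ± 0.18), which cut or reduce antigen, were lower, at edgeR adjusted p values of 0.00024, 0.0134 and 0.0167. The call of H2-DMa (edgeR adjusted p = 0.0342) ended without hashtag 2, 4 or 5 (0.0832, 0.0872 and 0.0546), and that of Ctss without hashtag 6 or 9 (0.0534 and 0.0521).

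Cytokine genes were mostly lower than in all other cells, with 1 of 16 tested higher and 11 lower (median log2 fold change -1.47). Il16 was the one that was higher, with 25.4, 40.3 and 60.8 CPM in cDC1-gated cells, against 8.43, 17.7 and 28.2 CPM in all other cells (1.36 ± 0.11, edgeR adjusted p = 3.85e-05). Tnf had 12.6, 27.8 and 39.9 CPM in cDC1-gated cells, against 91.5, 124 and 142 CPM in all other cells (-2.13 ± 0.22, edgeR adjusted p = 0.000167). Il1b had 85.8, 201 and 354 CPM in cDC1-gated cells, against 141, 1070 and 2510 CPM in all other cells (-1.71 ± 0.44, edgeR adjusted p = 0.0136). Il1b overlapped because its level followed the hashtag in both classes, and it was lower in 6 of 6. Il1a (-1.83 ± 0.31) and Il15ra (-1.80 ± 0.23), which presents IL-15, were lower as well. The log2 ratio of Il1a, from CPM + 5, was -0.29, -0.06 and -0.12 in hashtags 2, 4 and 5. In hashtags 6, 8 and 9 it was -1.62, -1.89 and -1.32. Il15ra did not pass against Sirpa-gated cells, with log2 ratios of -0.34 to 0.63 by hashtag.

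Il12b, the shared subunit of IL-12 and IL-23, depended on the class it was set against. It had 1.26, 4.70 and 22.9 CPM in cDC1-gated cells, against 9.94, 21.1 and 34.7 CPM in all other cells, and did not pass (-1.24 ± 0.61, edgeR adjusted p = 0.127). DESeq2 called it lower (-1.84, adjusted p = 0.00474), as did edgeR without hashtag 9 (-1.95, adjusted p = 0.0168). Sirpa-gated cells had 0, 2.27 and 12.5 CPM, and against them Il12b was higher by 1.61 ± 0.45 (edgeR adjusted p = 0.0101), a call that ended without hashtag 9 (0.81, edgeR adjusted p = 0.12). Il15 likewise passed against Sirpa-gated cells and not against all other cells, with 24.8, 45.0 and 76.7 CPM in cDC1-gated cells and 11.6, 17.6 and 31.7 CPM in Sirpa-gated cells (1.24 ± 0.34, edgeR adjusted p = 0.00986). This call of Il15 ended at a threshold of 6 UMIs (0.94, edgeR adjusted p = 0.0819), with no filter on low counts (1.21, 0.0796) and without the hashtag block (1.35, 0.0535). With Il16 (1.07) these were the 3 of 14 tested cytokines that were higher than in Sirpa-gated cells, and 8 were lower.

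Of 13 tested chemokines, 2 were higher and 9 lower in cDC1-gated cells than in all other cells (median log2 fold change -1.41). Cxcl9, the ligand of CXCR3 that draws effector T cells, had 79.1, 152 and 320 CPM in cDC1-gated cells, against 10.5, 17.3 and 35.6 CPM in all other cells (3.08 ± 0.14, edgeR adjusted p = 3.99e-06). All 3 highest values were in hashtags 2, 4 and 5, and the classes did not overlap. Ccl6 was higher by 0.47 ± 0.16 (edgeR adjusted p = 0.0401), a call that ended without hashtag 2, 4, 5 or 9 (0.0685, 0.101, 0.0683 and 0.0797). Ccl5 (-3.71 ± 0.58), Ccl3 (-1.69 ± 0.42) and Ccl22 (-3.02 ± 0.61), a ligand of CCR4 made by mature DCs, were lower. Against Sirpa-gated cells, which met the same limit on Fscn1, Ccl5 (-2.83 ± 0.34) and Ccl3 (-2.07 ± 0.37) were lower too. Ccl22 did not pass there (-1.05 ± 0.64, edgeR adjusted p = 0.201). Its median was 454 CPM in Fscn1-gated cells, so its difference from all other cells is partly set by the gate.

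Chemokine and migration receptors split by name, with 3 higher and 9 lower of 14 tested (median log2 fold change -2.12). Cxcr3 had 22.7, 25 and 31.5 CPM in cDC1-gated cells, against 1.54, 2.83 and 5.56 CPM in all other cells (3.21 ± 0.20, edgeR adjusted p = 1.22e-05). Ccr2, the receptor of CCL2, had 60.5, 136 and 275 CPM in cDC1-gated cells, against 7.58, 22.6 and 42.8 CPM in all other cells (2.69 ± 0.08, edgeR adjusted p = 7.06e-07). Ccr9, a gut homing receptor that binds CCL25, had 77.4, 108 and 141 CPM in cDC1-gated cells, against 9.23, 25.2 and 36.3 CPM in all other cells (2.35 ± 0.19, edgeR adjusted p = 5.11e-05). Ccr9 is also one of the plasmacytoid DC markers given above. The 3 receptors did not overlap between classes. In cDC1-gated cells Cxcr3 was even over hashtags, and Ccr2 was at 194 to 275 CPM in hashtags 2, 4 and 5 and at 60.5 to 78.4 CPM in hashtags 6, 8 and 9.

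Ccr7, which guides mature DCs to lymph nodes, had 12.2, 26.0 and 42.7 CPM in cDC1-gated cells, against 153, 250 and 373 CPM in all other cells (-3.39 ± 0.15, edgeR adjusted p = 4e-06). The limit on Fscn1, an actin bundling gene of mature DCs, puts mature cells among all other cells, so this difference is partly set by the gate. Sirpa-gated cells met the same limit, and Ccr7 was lower against them too (-2.33 ± 0.40, edgeR adjusted p = 0.000377), with 28.1 to 331 CPM. Ccr6 (-3.28 ± 0.25) and Ccr1 (-2.79 ± 0.64) were lower than in all other cells as well.

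Of 19 tested costimulatory and coinhibitory genes, 2 were higher and 11 lower in cDC1-gated cells than in all other cells (median log2 fold change -1.33). Besides Btla, Cd48, the ligand of CD244, was higher, with 118, 140 and 173 CPM in cDC1-gated cells, against 77.1, 95.6 and 127 CPM in all other cells (0.56 ± 0.06, edgeR adjusted p = 0.000169). Cd274, which encodes PD-L1, had 31.0, 62.7 and 116 CPM in cDC1-gated cells, against 264, 490 and 783 CPM in all other cells (-2.86 ± 0.10, edgeR adjusted p = 1.37e-06). Against Sirpa-gated cells the log2 fold change of Cd274 was -2.98 ± 0.18. Pdcd1lg2 (-2.28 ± 0.34), which encodes PD-L2, and Tnfsf9 (-2.70 ± 0.45), the ligand of 4-1BB, were lower as well.

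**Figure D4:**
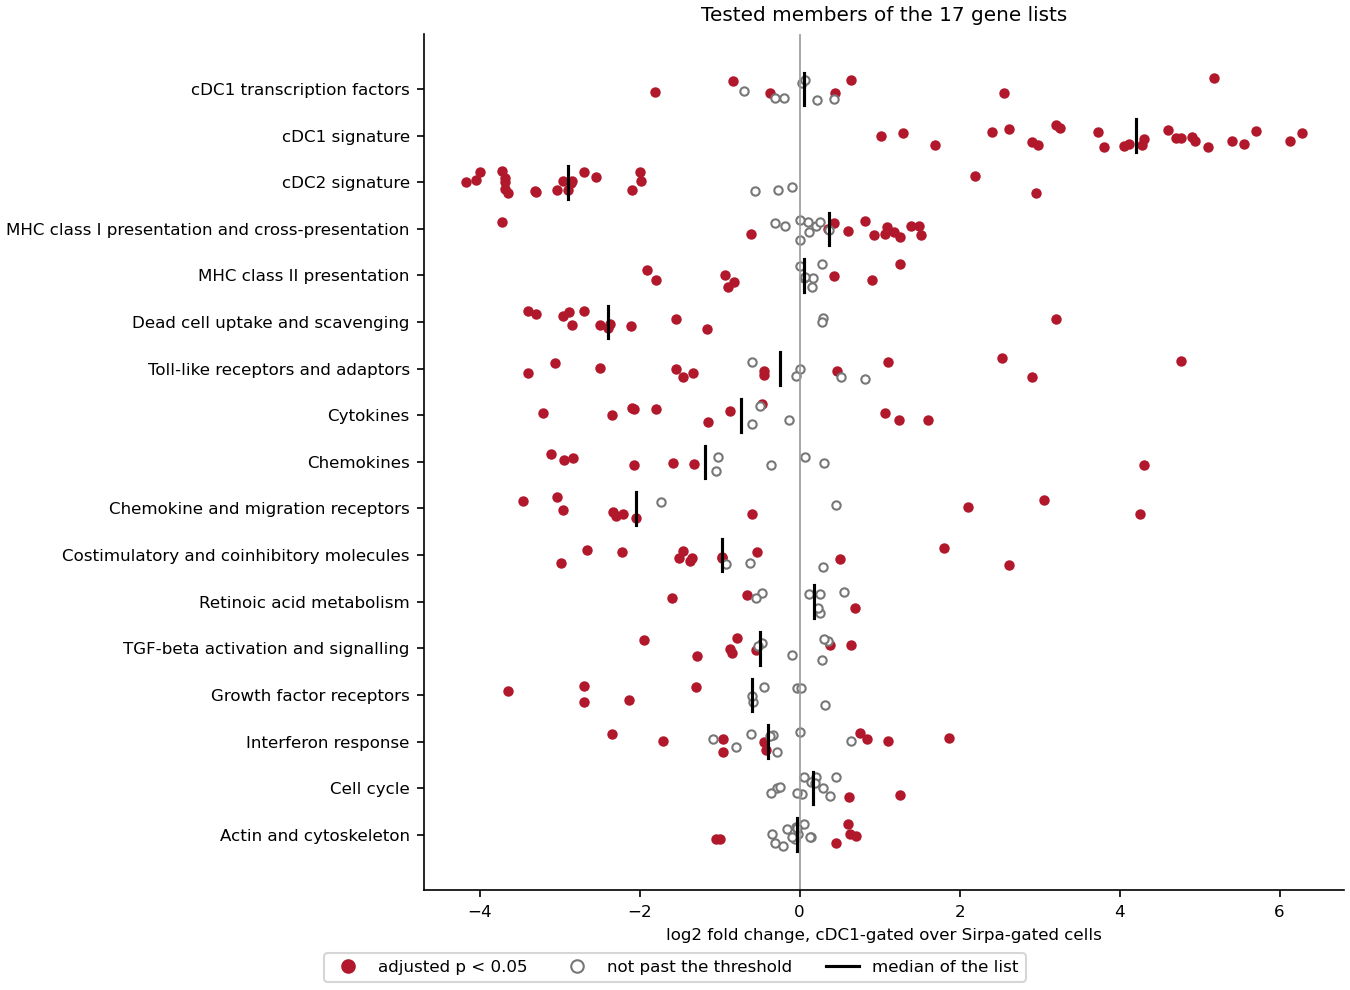
Log2 fold change of each tested member of 17 gene lists, cDC1-gated over Sirpa-gated cells; filled points passed an edgeR adjusted p of 0.05 and the bar is the list's median. The cDC1 signature has a median of 4.20 and the cDC2 signature one of -2.90, while the transcription factors (0.05), MHC class II (0.06) and actin genes (-0.04) centre near 0.

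Retinoic acid genes showed 2 higher and 2 lower of 11 tested against all other cells (median log2 fold change 0.22). Cyp26b1, which degrades retinoic acid, had 0.431, 0.843 and 0 CPM in hashtags 2, 4 and 5 of the cDC1-gated cells and 70.6, 68.2 and 81.0 CPM in hashtags 6, 8 and 9, while all other cells stayed at 0.855 to 2.57 CPM. It passed with 4.04 ± 0.87 (edgeR adjusted p = 0.00618), but it was higher in 3 of 6 hashtags only and DESeq2 gave 2.10 (adjusted p = 0.115). Aldh1a2, the retinoic acid synthase of gut DCs, had 2.11, 10.9 and 19.8 CPM in cDC1-gated cells and 9.89, 30.9 and 66.1 CPM in all other cells, and did not pass (-1.0 ± 0.78). Dhrs3, a retinal reductase, was lower (-1.61 ± 0.30, edgeR adjusted p = 0.00314), as was Rdh11 (-0.84 ± 0.22, edgeR adjusted p = 0.0139). The receptor Rxra was higher by 0.84 ± 0.26 (edgeR adjusted p = 0.0285), which ended without hashtag 2, 4 or 5 (0.0679, 0.0557 and 0.0643).

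Genes of TGF-beta activation and signalling were lower for 8 of 15 tested and higher for 1 (median log2 fold change -0.39). Smad7, the feedback inhibitor, had 34.5, 58.9 and 81.5 CPM in cDC1-gated cells, against 81.6, 143 and 191 CPM in all other cells (-1.23 ± 0.10, edgeR adjusted p = 5.34e-05). Smad4 (-0.73 ± 0.17), Ski (-0.76 ± 0.09) and the receptor Tgfbr2 (-0.39 ± 0.07) were lower by less. Itgb8, part of the integrin that frees latent TGF-beta, had 0.532, 0.827 and 1.73 CPM in cDC1-gated cells, against 1.16, 16.4 and 64.1 CPM in all other cells (-3.41 ± 0.79, edgeR adjusted p = 0.00853). Sirpa-gated cells had 0.402 to 2.23 CPM of Itgb8, and the difference from them did not pass (-0.47 ± 0.69, edgeR adjusted p = 0.617). Smad2 was the member that was higher (0.32 ± 0.10, edgeR adjusted p = 0.0254), which ended without hashtag 6, 8 or 9 (0.0778, 0.0639 and 0.0709).

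Among 11 growth factor receptors, 1 was higher and 6 lower than in all other cells (median log2 fold change -0.62). Flt3, the receptor on which conventional DCs depend, had 142, 239 and 361 CPM in cDC1-gated cells, against 109, 208 and 331 CPM in all other cells, higher in 6 of 6 hashtags by 0.25 ± 0.06 (edgeR adjusted p = 0.0108). Il7r (-3.61 ± 0.36), Csf1r (-2.61 ± 0.30), the macrophage growth factor receptor, and Il4ra (-1.60 ± 0.12) were lower. Csf2rb, the shared chain of the GM-CSF receptor, was lower by a log2 of -0.62 ± 0.08.

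Interferon genes showed 5 higher and 7 lower of 19 tested (median log2 fold change -0.37). Ifngr1, the ligand-binding chain of the interferon gamma receptor, had 445, 516 and 564 CPM in cDC1-gated cells, against 161, 205 and 244 CPM in all other cells (1.34 ± 0.10, edgeR adjusted p = 3.65e-05). Irf7 (1.67 ± 0.19), Irf9 (0.86 ± 0.07) and Bst2 (0.61 ± 0.11), all induced by interferon, were also higher. Irf1 (-1.32 ± 0.13) and Isg15 (-1.30 ± 0.15), which interferon also induces, were lower, so the list did not move one way.

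The cycle list was lower for 14 of 20 tested against all other cells, none higher, which the gate's limit on cycle genes sets. Against Sirpa-gated cells, which met the same limit, 2 of 14 tested were higher and none lower, Cdk1 by 1.25 ± 0.23 (edgeR adjusted p = 0.000535) and Tyms by 0.62 ± 0.20 (edgeR adjusted p = 0.0215). The list's median log2 fold change was 0.17, and the call of Tyms ended without hashtag 2 or 6 (edgeR adjusted p of 0.0792 and 0.0714). The 251 cells left out of the gate by cycle genes alone were 1.62% of all cells.

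Actin and cytoskeleton genes were 4 higher and 4 lower of 18 tested against all other cells (median log2 fold change -0.09). Tmsb4x, which binds monomeric actin, had 24900, 31700 and 37300 CPM in cDC1-gated cells, against 18700, 21800 and 24300 CPM in all other cells (0.53 ± 0.07, edgeR adjusted p = 0.000634). Arpc2 (0.47 ± 0.06), Actb (0.36 ± 0.09) and Actg1 (0.27 ± 0.08) were higher as well, and Myo1g (-1.22 ± 0.15), Rac2 (-0.87 ± 0.07), Dock8 (-0.31 ± 0.09) and Lsp1 (-0.24 ± 0.07) were lower. Calls of 3 of these ended when 1 hashtag was left out, with edgeR adjusted p values of 0.064 and 0.0567 for Actg1 without hashtag 6 and 9, of 0.055, 0.0583 and 0.0799 for Dock8 without hashtag 2, 4 and 5, and of 0.0628, 0.0563 and 0.0526 for Lsp1 without hashtag 4, 5 and 9.

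Genes outside the lists were ranked among called genes only. These had to have at least 20 CPM on average in the higher class and the same sign in 6 of 6 hashtags. Among them, the largest increases against all other cells were in genes of varied kinds. Gm43914 led by size (4.18 ± 0.10), but its 594 bases lie wholly inside Clec9a on the same strand (chromosome 6, 129418179 to 129418772 within 129408862 to 129424763, build mm10), so its UMIs cannot be told apart from those of a gate gene. P3h2, a collagen prolyl hydroxylase, had 359, 651 and 975 CPM in cDC1-gated cells, against 26.4, 37.1 and 51.3 CPM in all other cells (4.02 ± 0.32, edgeR adjusted p = 4.5e-05). Cacna1e, a voltage-gated calcium channel subunit, had 118, 190 and 263 CPM in cDC1-gated cells, against 5.31, 16.0 and 26.0 CPM in all other cells (3.8 ± 0.23, edgeR adjusted p = 1.35e-05). P2ry14, a receptor of UDP-glucose, had 243, 249 and 288 CPM in cDC1-gated cells, against 15.0, 23.4 and 35 CPM in all other cells (3.55 ± 0.11, edgeR adjusted p = 7.72e-07). None of these overlapped between the classes, and P2ry14 was nearly even over hashtags where P3h2 was at 918 to 975 CPM in hashtags 6, 8 and 9 and 359 to 384 CPM in hashtags 2, 4 and 5.

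The integrin chain Itga8 (3.75 ± 0.12), the Cdc42 exchange factor Fgd6 (3.49 ± 0.20), the actin binding drebrin gene Dbn1 (3.37 ± 0.18), the phospholipase Plce1 (3.24 ± 0.10), the TNF family ligand gene Eda (3.23 ± 0.23), the phosphatase Ppef2 (3.20 ± 0.16) and the growth factor receptor Met (3.18 ± 0.12) followed, with log2 values against all other cells. Gm42962 (3.26 ± 0.28) lies within Tbxas1, the thromboxane synthase gene, on the opposite strand. Tbxas1 was higher by 1.42 ± 0.19, and without a stated strand setting the pair cannot be told apart.

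Among genes outside the lists that met the same limits on calls, level and sign, the largest decreases were B3galt1 (-5.43 ± 0.61), Sirpb1c (-5.08 ± 0.41), Dkk2 (-4.83 ± 0.83), Gm16685 (-4.47 ± 1.0), 1810064F22Rik (-4.41 ± 0.40), Dscaml1 (-4.38 ± 0.72), Gm32509 (-4.35 ± 0.45) and H2-M2 (-4.27 ± 0.44). Sirpb1c, of the same family as the gate gene Sirpa, had 0, 0.305 and 1.69 CPM in cDC1-gated cells, against 6.12, 15.6 and 49.6 CPM in all other cells. Several of the others were high in Fscn1-gated cells, the mature DCs that the gate left out: median levels there were 361 CPM for Dscaml1, 244 CPM for H2-M2, 168 CPM for Gm16685 and 134 CPM for Dkk2, against 2.19, 1.66, 0.616 and 0.778 CPM in cDC1-gated cells.

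Neighbours of the gate genes were read for their own values. Next to Clec9a on chromosome 6, the lectin receptors Clec12a (1.96), Clec1a (2.59 ± 0.34) and Clec1b (2.99 ± 0.10) were higher in cDC1-gated cells than in all other cells. Olr1, farther along, did not pass (-0.27 ± 0.3). The end of Clec1b shares 474 bases with the start of Clec9a on the same strand. UMIs from the shared bases cannot be told apart between Clec1b and the gate gene. Clec1a lies just past the end of Clec9a on the opposite strand. Around Xcr1 on chromosome 9, Ccr9 and Ccr2 were higher as given above and Lztfl1 by 0.94 ± 0.07, whereas Ccr1 (-2.79) and Cxcr6 (-1.22 ± 0.25) were lower and Fyco1 did not pass (-0.22 ± 0.19). Cxcr6 was near the floor, with 0.319 to 2.37 CPM in cDC1-gated cells. The named neighbours of Xcr1 thus went both ways, and a shared cause was not tested at either place.

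Another contrast set the cDC1-gated cells against the 1117 Fscn1-gated cells, with at least 3 Fscn1 UMIs and the same limits on Prdm16 and cycle genes. These made up 18.5, 19.6 and 19.5% of hashtags 2, 4 and 5 and 1.94, 0.824 and 1.64% of hashtags 6, 8 and 9, so the sums of hashtags 6, 8 and 9 rest on 60, 21 and 80 cells. Of 10656 tested genes 53.7% passed, 28.0% higher and 25.8% lower in cDC1-gated cells. Of 26 signature genes 25 were higher and 1 lower (median log2 fold change 3.21), and the one that was lower was Ly75, with 97.5, 107 and 116 CPM in cDC1-gated cells, against 215, 320 and 549 CPM in Fscn1-gated cells (-1.75 ± 0.23, edgeR adjusted p = 2.6e-05).

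MHC genes split between the classes in this contrast. Of 14 tested MHC class II genes 9 were higher and 4 lower in cDC1-gated cells (median log2 fold change 0.54), while of 23 class I genes 5 were higher and 11 lower (median -0.04). B2m had 506, 545 and 604 CPM in cDC1-gated cells, against 1130, 1810 and 2050 CPM in Fscn1-gated cells (-1.66 ± 0.12, edgeR adjusted p = 1.03e-07). Ccl5 showed one of the wider gaps, with 17.8, 18.7 and 30.8 CPM in cDC1-gated cells, against 604, 2130 and 2770 CPM in Fscn1-gated cells (-6.22 ± 0.39, edgeR adjusted p = 3.16e-08). Il12b was lower as well (-4.22 ± 0.39, edgeR adjusted p = 1.07e-06), and neither B2m nor Ccl5 overlapped. Batf3 did not pass (-0.17 ± 0.16), whereas Irf8 was higher by 3.46 ± 0.21 (edgeR adjusted p = 1.94e-08) and Mycl by 3.73 ± 0.26.

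cDC1-gated cells also varied among the hashtags. Among 5727 genes with at least 20 CPM on average in cDC1-gated cells, the range of log2(CPM + 5) over the 6 hashtags had a median of 0.68, and 1680 genes had a range of at least 1 and 199 of at least 2. This is a description with no test, because the labels give the hashtags no group. The 4 widest ranges were the hemoglobin genes Hba-a1 (5.82), Hbb-bs (5.73), Hba-a2 (5.37) and Hbb-bt (5.05), all from hashtag 8. In that hashtag 8522 of 8631 hemoglobin UMIs were in 1 cell, which held 34555 UMIs, and without it Hba-a1 had 3.99 CPM there, near the 4.05 to 8.43 CPM of the other hashtags.

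The next genes did not rest on 1 cell's hashtag, and hashtags 6, 8 and 9 stood apart from 2, 4 and 5. Scin, an actin severing protein, had 1.29, 1.69 and 1.69 CPM in hashtags 2, 4 and 5 of the cDC1-gated cells and 63.3, 86.7 and 112 CPM in hashtags 6, 8 and 9, a range of 4.22 on the log2 scale against 1.59 in all other cells. Cyp26b1 had a range of 4.10 in cDC1-gated cells and 0.371 in all other cells, so its split was not seen outside cDC1-gated cells at that size. The nuclear receptor Nr4a2 had 50, 51.4 and 90.7 CPM in hashtags 2, 4 and 5 of the cDC1-gated cells and 901, 721 and 613 CPM in hashtags 6, 8 and 9. Nr4a2 (range 4.04 in cDC1-gated cells, 3.33 in all other cells) and the stress factor Atf3 (3.95 and 3.59) had nearly as wide a range in all other cells, as did 1700016P03Rik (4.03 and 3.04).

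Other genes ran the opposite way. F630028O10Rik had 158, 201 and 129 CPM in hashtags 2, 4 and 5 of the cDC1-gated cells and 9.38, 8.89 and 7.77 CPM in hashtags 6, 8 and 9, with a range of 4.01. Gcsam, of the signature, had 146, 132 and 124 CPM in hashtags 2, 4 and 5 and 23.2, 20 and 19.6 CPM in hashtags 6, 8 and 9. Cadm1 had 771, 880 and 797 CPM in hashtags 2, 4 and 5 and 1540, 1530 and 1510 CPM in hashtags 6, 8 and 9. Depth and the mitochondrial share of the cDC1-gated cells moved with the same hashtags, as given above, and their part in these ranges was not tested.

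**Figure D5:**
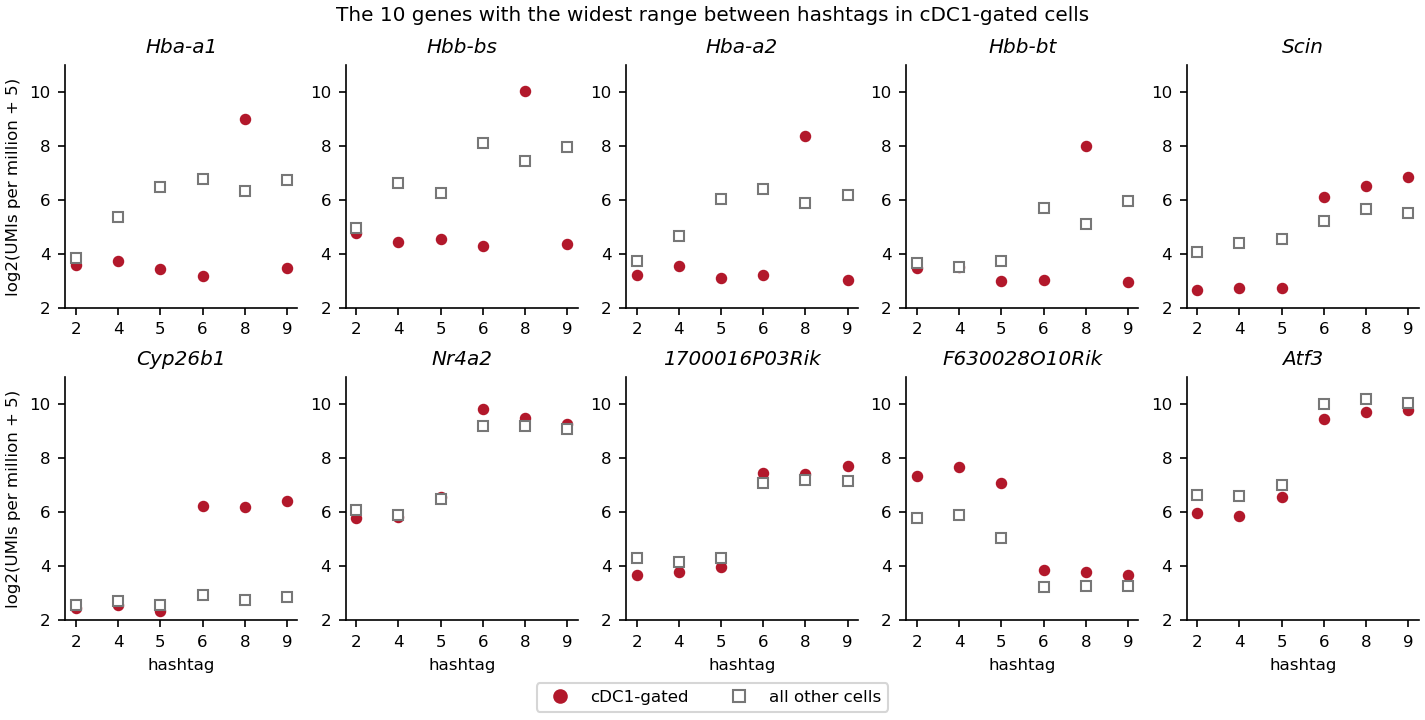
log2(CPM + 5) by hashtag for the 10 genes with the widest range over hashtags in cDC1-gated cells (filled points), beside all other cells (open squares). The 4 hemoglobin genes peak in hashtag 8 only, Scin and Cyp26b1 are high in hashtags 6, 8 and 9 of the cDC1-gated cells, with a Cyp26b1 range of 4.10 against 0.371 in all other cells, and F630028O10Rik is high in hashtags 2, 4 and 5.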

How the data were processed

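Dendritic cells were profiled with the Chromium 3' v3 kit, per the labels' protocols, in 1 gene expression and 1 hashtag library. Cell Ranger 8.0.1 and build mm10 are named in the submitters' processing notes. How intronic reads and strand were treated stays not given in the sources used here. The deposited matrix holds raw UMI counts of 32289 genes in 3247803 barcodes, and the authors' deposited table assigns 27679 barcodes to a hashtag, of which 4815 multiplets and all unassigned and blank ones were left out; 15 other columns of it were not used. The share-like assignment probability (a fraction from 0 to 1), made by the authors' hashtag caller per the file headers, was at least 0.901 in every barcode kept. No doublet caller was run. The 19239 barcodes with 1 hashtag left 15480 after the filters on genes and mitochondrial UMIs.

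Counts were summed per class and hashtag (at least 10 cells) and fitted in R 4.3.3 with edgeR 4.0.16 (TMM, filterByExpr, robust quasi-likelihood fit) on hashtag and class, the 9 gate genes left out. The contrast with all other cells used 12 sums (5 residual degrees of freedom, dispersion 0.0385), the contrasts with Sirpa-gated and Fscn1-gated cells 18 sums (10 and 0.0453). The hashtag is the block because each biological replicate gave cells to every class. Named genes are the chosen genes, up to 4 called members a list, the 12 highest and 8 lowest outside the lists and the 10 widest ranges; Clec12a, Lyz2, Fzd1 and others that account for small counts were added after their values were seen. Members and lists were chosen with earlier results of these data known. On simulated data, 100% of genes changed by a log2 of 2 and 12% of those changed by 0.5 were recovered in the contrast with all other cells (11959 genes). The simulation changed 100 genes of each size, with a fixed dispersion and no hashtag effects. Far more genes were called in the real data, so these recovered shares do not carry over to it. Alternatives were DESeq2 1.42.0, RLE factors, no filter, no block, stricter gates and cells, and leaving out each hashtag. Summed cDC1-gated libraries held 2319581 to 9392105 UMIs. Whether fewer positive cells or less RNA per cell sets a summed level cannot be told apart from the sums alone. Intervals cover counting error only. Values of some single members of the lists are not reported here, although the list counts and sums hold them.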

Additional observations from a re-analysis of the deposited data

Results flagged for a closer look

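The highest or lowest hashtag was tested against the other 5 for 155 sets of 6 values (Dixon's ratio of gap to range, 95% critical value), and 8 stood apart. The hemoglobin genes among these were named for their wide range and share 1 cell, so the sets were not independent. The count of 8 is therefore not compared with a chance rate. As log2 ratios of cDC1-gated to all other cells, Irf9 was high in hashtag 8 (1.03), Lyz2 in hashtag 5 (1.24) and Zbtb46 in hashtag 4 (0.27), and Rab43 was low in hashtag 2 (1.16). As log2(CPM + 5) in cDC1-gated cells, hashtag 8 stood apart for Hba-a1 (9.00), Hbb-bs (10.03), Hba-a2 (8.38) and Hbb-bt (8.01), the hashtag whose hemoglobin UMIs lay almost all in 1 cell.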

How the results depend on the processing

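The share and the called genes depend on a gate read from raw UMIs and on 5 residual degrees of freedom, so small differences near the threshold are the least secure. Without the hashtag as replicate block, 3486 genes passed against all other cells (5983 with it), 2772 against Sirpa-gated cells (4742 with it) and 3906 against Fscn1-gated cells (5727 with it), and 29 named genes lost their call against all other cells and 24 against Sirpa-gated cells, Batf3, Itgae, Il1b and Il12b (against Sirpa-gated cells) among them. Leaving out 1 hashtag gave 4938 to 5590, 3892 to 4451 and 4853 to 5665 genes in the 3 contrasts. Of 144 genes named against all other cells, 106 kept direction and side of the threshold in every setting run, as did 103 of 142 against Sirpa-gated cells. With no filter on low counts, 37.5% of the calls against all other cells were higher in cDC1-gated cells, against 47.5% with it, and the median log2 fold change of all genes was -0.37. With no filter the calls against all other cells of Actg1, Ccl6, Flt3, H2-DMa, Il1b and Irak2 ended (edgeR adjusted p of 0.0815, 0.0629, 0.0672, 0.0653, 0.0537 and 0.0958), as did those of Bcl6 and Il12b against Sirpa-gated cells (0.116 and 0.0643). The calls of Actg1 and Ccl6 against all other cells also ended among cells with at least 5000 UMIs (0.0702 and 0.0508), that of Ccl6 at a threshold of 6 UMIs (0.0569), and that of Tyms against Sirpa-gated cells without the 5% of cells with most UMIs (0.0552). The median share of cDC1-gated cells was 13.2%, and 9.57% at a threshold of 6 UMIs and 17.8% among cells with at least 5000 UMIs, whereas a looser rule on cells thinned to 2000 UMIs (at least 1 Xcr1 or Clec9a UMI and more than of Sirpa, with no other limit) gave 17.4%, which is not the same gate. Directions turned only for genes that had not passed: against all other cells Il15 (-0.50 without the block, -0.08 with 1000 genes and 5% mitochondrial UMIs, -0.18 to 0.31 without 1 hashtag) and Ly75 (-0.06 with 1000 genes and 5%, -0.07 to 0.19); against Sirpa-gated cells Il15ra (0.15 without the block, -0.35 to 0.06), Lsp1 (0.07 at a threshold of 6 UMIs), Lyz2 (0.07 with 1000 genes and 5%, -0.35 to 0.06), Aldh1a2 (-0.08 to 0.54) and Tuba1b (-0.08 without the 5% of cells with most UMIs, -0.08 to 0.13). The causes were not tested. Setting cDC1-gated cells against other cells without any Xcr1 or Clec9a UMI was chosen after seeing the data and gave 5956 genes.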

Other observations

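The remaining marker lists for other cell types had these sums in cDC1-gated cells, against all other cells, as the range over hashtags. Monocyte markers summed to 667 to 1150 CPM in cDC1-gated cells and 376 to 1380 CPM in all other cells, almost all of it Plac8, with Chil3 at 0 in cDC1-gated cells. Innate lymphocyte markers summed to 6.90 to 16.9 CPM in cDC1-gated cells and 67.3 to 277 CPM in all other cells, with Il22 and Il17a at 0 in cDC1-gated cells. B cell markers summed to 6.67 to 26.7 CPM in cDC1-gated cells and 7.82 to 70.0 CPM in all other cells. Neutrophil markers summed to 2.16 to 12.9 CPM in cDC1-gated cells (S100a8 and S100a9 at 0) and 7.27 to 51.1 CPM in all other cells. Epithelial markers summed to 2.03 to 27.2 CPM in cDC1-gated cells (Reg3g at 0) and 6.46 to 40.1 CPM in all other cells, and stromal or endothelial markers to 15.4 to 59.9 CPM and 94.1 to 151 CPM. Markers of RORgt+ DCs summed to 1.73 to 12.2 CPM in cDC1-gated cells and 7.85 to 208 CPM in all other cells, and those of mature or migratory DCs to 50.1 to 94.8 CPM and 407 to 1710 CPM. Barcodes with 1 to 100 UMIs, which hold RNA free of cells, had 61.3 CPM of Xcr1 and 109 CPM of Clec9a.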
